A study of Mus musculus with 12 samples.

Results

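The comparison described here asks what the chromosome 13 segment allele does to gene expression when both genetic backgrounds are weighed equally. Mouse embryonic stem cells of 4 genotypes were profiled by RNA sequencing, with 3 libraries each. B6 is C57BL/6J and D2 is DBA/2J, a pair of inbred strains. B6-13D2 (strain QJ) carries a DBA/2J chromosome 13 segment, from rs30079041 to rs51756099, on the C57BL/6J background. D2-13B6 (strain XE) is the reciprocal congenic, with a C57BL/6J segment that starts at rs29224292 on the DBA/2J background. The labels and the design text give different end markers for that second segment. Both D2 and B6-13D2 therefore hold the D2 segment (6 libraries), and both B6 and D2-13B6 hold the B6 segment (6 libraries). The averaged effect is the mean of the D2-segment groups minus the mean of the B6-segment groups, on the log2 scale, over all 12 libraries of the series.

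Background and congenic status are balanced in this contrast. Each arm has 1 parental and 1 congenic group, and each arm has 1 group of each background. The averaged effect equals the mean of the effect on the B6 background (B6-13D2 minus B6) and the effect on the D2 background (D2 minus D2-13B6). By the labels' protocol each strain is represented by 1 cell line, grown as separate cultures in serum, LIF, a MEK inhibitor (PD0325901) and a GSK3 inhibitor (CHIR99021). The titles call the replicates technical. A property of 1 line and an effect of the segment cannot be told apart, and the p-values measure only the spread between cultures. B6 replicate 3 carries another line name than B6 replicates 1 and 2, and the titles of the D2 libraries name another D2 line than their cell line field does. Segment boundaries in bases were not used here, so the cis side of the comparison is the whole of chromosome 13 and the trans side is all other chromosomes.

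Embryonic stem cells are derived from the inner cell mass of the blastocyst and are kept undifferentiated by LIF and by blocking the differentiation signals that run through MEK and GSK3. In these cells many transposons, germline genes and imprinted regions are held silent by heterochromatin. KRAB zinc finger proteins bind specific DNA sequences there and recruit the cofactor TRIM28, the histone H3 lysine 9 methyltransferase SETDB1 and the DNA methyltransferases. Genes of this zinc finger family lie in clusters on many mouse chromosomes, differ between inbred strains, and one large cluster is on chromosome 13. A factor encoded in the segment can act on its own chromosome or on others, which is the question behind the split into cis and trans. The title of the series names trans-regulation of heterochromatin.

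The files held between 22184196 and 36411799 estimated reads per library. Of 43346 genes, 17148 passed the filter on low counts, 638 of them on chromosome 13, 16351 on other chromosomes and 159 without a position. Summed levels of 8 stem cell markers lay between 3068 and 5231 CPM in every library, CPM being a read count scaled to one common library size. Summed levels of 20 fibroblast and mesenchyme markers differed far more. They were 19870 to 21090 CPM in B6, 28020 to 31890 in D2, 8299 to 8397 in B6-13D2 and 15650 to 16240 in D2-13B6. The D2-segment groups thus held both the lowest and the highest values. Chromosome 11 genes stood apart in D2-13B6, by a median of 0.22 on the log2 scale above their mean over the groups, against -0.05 to -0.09 in the other groups. All CPM below are scaled by TMM, edgeR's trimmed mean of M values.

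The promoters of 6 genes that the results turn on are shown first, from RefSeq (GRCm38.p6), each from 250 bases before to 50 bases after the gene's start, 5′ to 3′ on the gene's strand. Of the 26 genes named below for an effect on both backgrounds, 20 had an entry in that table. The zinc finger region of chromosome 13 gave the first 4. In 2410141K09Rik (chr13:66441069-66441368, minus strand) and Gm10324 (chr13:66113203-66113502, plus strand) the capitals mark their longest shared run, 42 bases. Aligned on that run, 271 of 291 bases (93.1%) were identical between them, and both genes rose with the D2 segment.
2410141K09Rik: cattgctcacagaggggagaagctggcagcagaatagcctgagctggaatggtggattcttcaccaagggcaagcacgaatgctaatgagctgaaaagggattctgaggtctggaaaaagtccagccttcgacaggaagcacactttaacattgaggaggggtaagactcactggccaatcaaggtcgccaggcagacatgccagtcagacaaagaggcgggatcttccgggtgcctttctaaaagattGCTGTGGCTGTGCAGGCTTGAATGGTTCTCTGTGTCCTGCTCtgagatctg
Gm10324: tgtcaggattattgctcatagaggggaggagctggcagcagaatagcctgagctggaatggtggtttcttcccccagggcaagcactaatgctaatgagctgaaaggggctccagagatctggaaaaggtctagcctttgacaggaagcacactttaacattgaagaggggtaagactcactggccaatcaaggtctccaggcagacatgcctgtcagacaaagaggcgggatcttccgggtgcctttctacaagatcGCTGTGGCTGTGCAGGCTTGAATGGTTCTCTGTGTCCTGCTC

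Zfp459 (chr13:67421369-67421668, minus strand) and Zfp874a (chr13:67451575-67451874, minus strand) lie next to each other and both fell with the D2 segment. The capitals mark the CG dinucleotides, 10 in each. Of all 32851 promoters of this length in the table, 43.5% held 10 or more. Their longest shared run was 12 bases.
Zfp459: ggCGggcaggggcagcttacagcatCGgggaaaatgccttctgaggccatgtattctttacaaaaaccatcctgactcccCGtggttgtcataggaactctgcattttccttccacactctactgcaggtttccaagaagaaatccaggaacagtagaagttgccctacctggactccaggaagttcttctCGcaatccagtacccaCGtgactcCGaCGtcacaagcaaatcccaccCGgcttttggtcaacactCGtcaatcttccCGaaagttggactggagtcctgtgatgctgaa
Zfp874a: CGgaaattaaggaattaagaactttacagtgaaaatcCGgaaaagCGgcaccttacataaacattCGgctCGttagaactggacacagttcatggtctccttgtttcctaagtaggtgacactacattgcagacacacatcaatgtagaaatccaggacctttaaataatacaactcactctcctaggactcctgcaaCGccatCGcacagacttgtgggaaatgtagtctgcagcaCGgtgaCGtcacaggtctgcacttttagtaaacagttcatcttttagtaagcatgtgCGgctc

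Aass (chr6:23132937-23133236, minus strand) and H2-Eb1 (chr17:34305617-34305916, plus strand) are the genes with the largest rise away from chromosome 13 under the naming rule used below. The capitals mark CCAAT on either strand (ATTGG on the other), which was found in 2 places in each of them. A match was found in 37.4% of all promoters in the table and in 9 of the 20 named genes. In MHC class II genes such as H2-Eb1 an inverted CCAAT is known as the Y box. A match is a description of the letters only.
Aass: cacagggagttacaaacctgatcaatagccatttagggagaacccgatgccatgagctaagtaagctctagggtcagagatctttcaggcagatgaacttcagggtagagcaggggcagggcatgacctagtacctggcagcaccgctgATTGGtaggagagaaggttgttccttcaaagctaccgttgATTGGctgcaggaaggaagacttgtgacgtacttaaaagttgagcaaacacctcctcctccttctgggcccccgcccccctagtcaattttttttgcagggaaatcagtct
H2-Eb1: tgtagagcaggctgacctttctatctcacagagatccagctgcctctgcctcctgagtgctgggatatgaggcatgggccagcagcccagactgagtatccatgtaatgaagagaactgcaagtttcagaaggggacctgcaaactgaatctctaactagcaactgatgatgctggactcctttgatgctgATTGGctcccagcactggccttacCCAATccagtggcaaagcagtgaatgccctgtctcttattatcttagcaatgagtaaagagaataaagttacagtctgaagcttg

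Many genes were called in the averaged contrast, most of them with effects under 2-fold. By edgeR's quasi-likelihood test with Benjamini-Hochberg adjustment at 0.05, 7524 of 17148 genes (43.9%) were called in the averaged contrast, 2835 (16.5%) higher and 4689 (27.3%) lower with the D2 segment. A change of at least 2-fold was called for 405 genes (2.36%), and the median absolute effect over all tested genes was 0.16 on the log2 scale. The split between higher and lower depended on the scaling and on the filter. Of the called genes 37.7% were higher with TMM and 47.7% with relative log expression (RLE) factors. With the filter set to a mean of at least 1 CPM the share was 50.9%, so the excess of lower genes is not given here as a direction.

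In the same fit, the averaged background effect was called for 12599 genes (73.5%) and the difference between the congenic and parental groups for 11059 genes (64.5%). Their median absolute effects were 0.35 and 0.27, with a median standard error (SE) of 0.06 in all 3 contrasts. These are orthogonal contrasts of the same 12 libraries. The segment contrast therefore had the fewest calls and the smallest typical effect of the 3. No test of that difference was made.

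Most calls in the average did not hold on both backgrounds. Of the 7524 genes, 1257 were also called in one direction on both backgrounds, which is 7.33% of all tested genes. A further 2386 were called on both in opposite directions, 1997 were called on the B6 background alone, 1766 on the D2 background alone and 118 on neither. The effect on the B6 background and the effect on the D2 background share no library. In 479 genes (2.79%) the 6 libraries with the D2 segment and the 6 with the B6 segment did not overlap, with 157 (0.916%) higher and 322 (1.88%) lower with the D2 segment. Fitted without an interaction term, so that the difference between backgrounds enters the residual, the averaged contrast was called for 1795 genes, 1776 of them among the 7524.

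**Figure D1:**
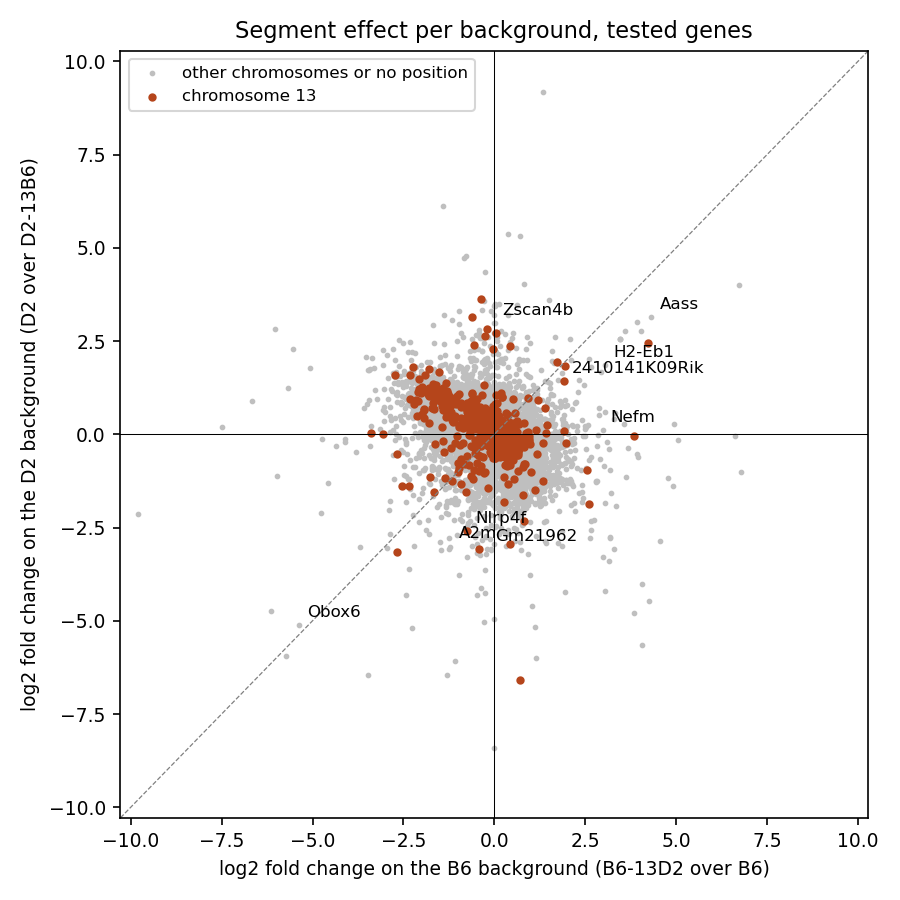
Log2 fold change with the D2 segment on the B6 background (x axis) and on the D2 background (y axis) for the 17148 tested genes, with chromosome 13 genes in red; the dashed line marks equal effects. Obox6 lies near the diagonal, Aass and H2-Eb1 are higher on both backgrounds and more so on B6, and Nefm and Zscan4b lie near 1 axis.

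The split by chromosome gave similar shares of called genes on both sides. On chromosome 13, 260 of 638 genes (40.8%) were called, 138 higher and 122 lower, and on other chromosomes 7238 of 16351 (44.3%), 2685 higher and 4553 lower. Calls on both backgrounds in one direction made up 51 genes (7.99%) on chromosome 13 and 1200 (7.34%) elsewhere. Libraries that did not overlap were seen for 23 genes (3.61%) and 455 genes (2.78%). The shares lay further apart for large effects. An averaged change of at least 2-fold with a call in one direction on both backgrounds, met by 0.869% of all tested genes, was seen for 16 genes on chromosome 13 (2.51%) and 132 elsewhere (0.807%). With DESeq2, run on all genes with a read, 15 genes on chromosome 13 and 101 elsewhere met this. The difference between the sides was not tested, since neighbouring genes are not independent.

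Where each gene had only whole counts, so that the authors' counting had not divided reads between genes, the shares called were 41.9% on chromosome 13 (184 of 439) and 45.7% elsewhere (5335 of 11679). Without chromosomes 11, X and Y the share elsewhere was 42.6% (6107 of 14327). By number, nearly all called genes were on chromosomes other than 13, which hold nearly all tested genes.

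**Figure D2:**
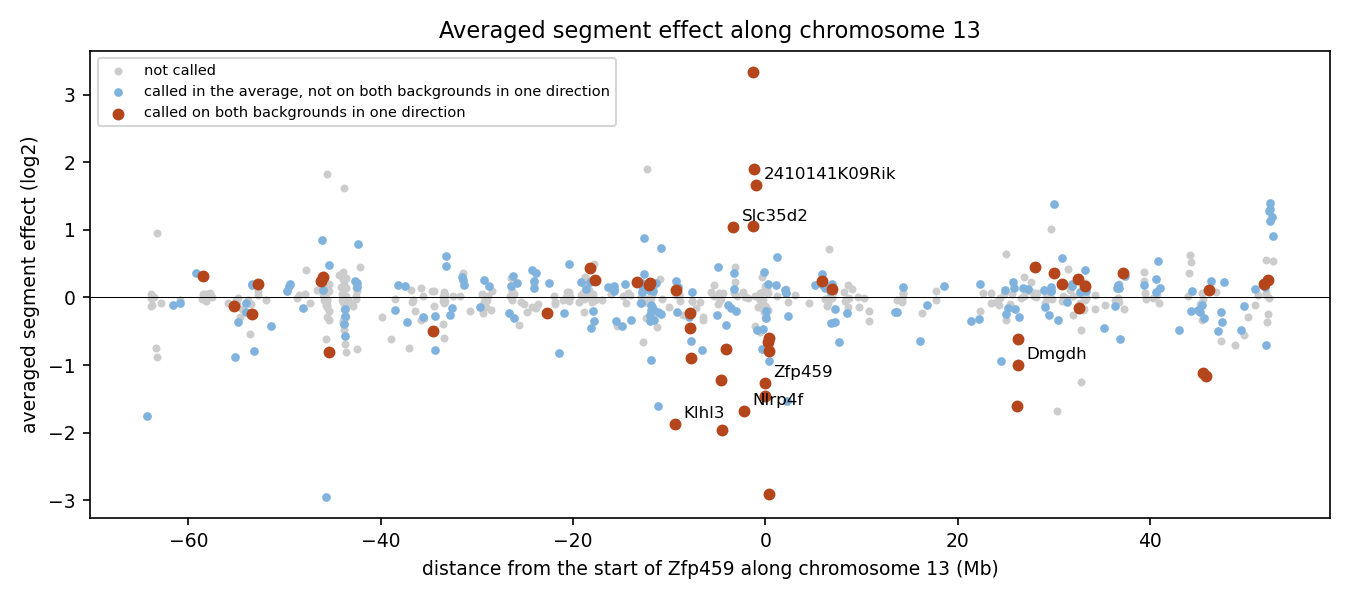
Averaged segment effect (log2, y axis) of tested chromosome 13 genes against distance in Mb from the start of Zfp459 (x axis). Grey genes were not called, blue genes were called in the average alone or in opposite or single backgrounds, and red genes were called on both backgrounds in one direction; among the red genes the highest (Gm17514) and the lowest (Gm9625) lie close to Zfp459.

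Of the 16 chromosome 13 genes with a 2-fold average and a call in one direction on both backgrounds, 8 start between 65 and 70 Mb, where 24 of the 40 tested zinc finger genes of the chromosome lie. The share called there was near the background, with 25 of 55 tested genes (45.5%) against 43.9% of all tested genes. Calls in one direction on both backgrounds made up 11 of the 55 (20%), against 7.33% of all tested genes. In 10 of the 55 (18.2%) the libraries did not overlap, against 2.79% of all tested genes. The stretch was chosen after its values were seen, and neighbouring genes are not independent, so these shares are a description. Calls among all 55 genes were 10 higher and 15 lower. The genes without overlap are given in order along the chromosome, leaving out the tested genes that lie between them. Nlrp4f was lower. Then 4 of them within 322 kb, Gm10324, Gm17514, Gm10772 and 2410141K09Rik, were higher. Zfp459, Zfp874a, Zfp738, Gm9625 and Zfp273 came last and were lower. The genes Gm17514, Gm10772, Gm9625 and Zfp273 were chosen after their values were seen.

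2410141K09Rik (ENSMUSG00000074832, chr13:66418114-66441118, annotated as protein coding) had the largest averaged rise of the chromosome 13 genes that the naming rule gave. Its level was 29.9, 29.7 and 30.8 CPM in B6 and 34.9, 33.3 and 30.4 in D2-13B6. It was 110.4, 115.7 and 112.4 in B6-13D2 and 81.2, 85.0 and 98.5 in D2. Every library with the D2 segment was above every library with the B6 segment. The naming rule for effects on both backgrounds kept only genes whose libraries separated in this way, up or down. The averaged effect was 3.16-fold (log2 1.66, SE 0.04, adjusted p = 1.9e-14), with 1.90 on the B6 and 1.42 on the D2 background. Part of its reads were divided between genes in the authors' counting, as were those of its neighbour Gm10324.

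Gm10324 (ENSMUSG00000095909, chr13:66119547-66122836) lies 295 kb from it and its RefSeq start differs from this position. It stood at 13.4 to 15.3 CPM in B6, 21.9 to 24.3 in D2-13B6, 31.9 to 33.4 in B6-13D2 and 38.2 to 47.6 in D2. The averaged log2 effect was 1.06, and the segment alleles did not overlap, as the rule required. Gm17514 was nearly silent with the B6 segment, at 0.08 to 0.24 CPM in those 6 libraries. It rose to 2.01 to 2.38 CPM in B6-13D2 and 0.86 to 1.28 in D2.

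Zfp459 (ENSMUSG00000055560, chr13:67405709-67421418, protein coding) is a zinc finger gene of the cluster and fell with the D2 segment. It measured 33.4, 34.9 and 36.4 CPM in B6 and 29.0, 31.1 and 28.7 in D2-13B6, against 13.1, 14.4 and 13.0 in B6-13D2 and 13.5, 13.8 and 12.2 in D2. Both D2-segment groups sat at one level whatever their background. The fall was 2.40-fold (log2 -1.26, SE 0.04, adjusted p = 9.95e-13), with -1.37 on B6 and -1.16 on D2. Its counts were whole in every library.

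Zfp874a (ENSMUSG00000069206, chr13:67424549-67451624) starts 3.13 kb beyond the end of Zfp459. It stood at 16.9, 21.2 and 18.1 CPM in B6 and 19.16, 19.32 and 18.64 in D2-13B6. With the D2 segment it stood at 4.92, 5.77 and 5.70 CPM in B6-13D2 and 9.08, 8.76 and 7.97 in D2. Within the D2-segment arm the congenic libraries were lowest. The averaged log2 effect was -1.46 (SE 0.06, adjusted p = 9.22e-12). Zfp738 was the next of the genes above without overlap and fell by 0.66 on the log2 scale. It went from 12 to 13.8 CPM with the B6 segment to 6.79 to 9.83 with the D2 segment. Gm9625 fell from 1.49 to 3.77 CPM to 0.11 to 0.67 CPM.

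Among all 40 tested zinc finger genes of chromosome 13, taken by their symbols, 7 were called higher and 7 lower, with a median log2 effect of 0.01. This is 35.0% called, below the 43.9% of all tested genes. Genes of the region without such a symbol, 2410141K09Rik and Gm10324 among them, are not in these counts. Whether they encode zinc finger proteins was not examined. Of the 40, 1 was higher and 5 were lower on both backgrounds (15%, against 7.33% of all tested genes). The 1 higher became 0 with DESeq2 or without D2-13B6 replicate 1. It became 2 with RLE factors and without B6 replicate 3, D2 replicate 1 or D2-13B6 replicate 3. At a mean of at least 1 CPM, where 38 were tested, it became 3. With RLE factors the calls were 11 higher and 6 lower, and at that mean 12 and 6. Zfp934 (0.45) and Zfp595 (0.38) had the smallest adjusted p among the higher ones. Both rose on the B6 background alone, by 0.94 and 0.83, against -0.05 and -0.07 on the D2 background. Summed levels of these 40 genes were 500 to 522.1 CPM in B6, 457.5 to 464.7 in D2-13B6, 498.9 to 516.3 in B6-13D2 and 403.2 to 432.5 in D2, so the sum did not separate the alleles.

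Nlrp4f (ENSMUSG00000032999, chr13:65177111-65205977), an oocyte-expressed member of the NLR family, had the largest averaged fall of the chromosome 13 genes that the naming rule gave. It was at 27.3, 27.2 and 28.3 CPM in B6 and 45.3, 43.0 and 49.5 in D2-13B6, against 16.1, 16.5 and 16.2 in B6-13D2 and 6.50, 7.70 and 8.60 in D2. The order of the groups was not set by segment alone, since the D2 background gave both the highest and the lowest values. The averaged fall was 3.20-fold (log2 -1.68, SE 0.05, adjusted p = 1.88e-13), with -0.76 on B6 and -2.59 on D2.

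Other named chromosome 13 genes lay outside the zinc finger cluster. Dmgdh (ENSMUSG00000042102, chr13:93674433-93752833) encodes dimethylglycine dehydrogenase of choline breakdown. It was at 6.67 to 8.96 CPM in the 6 B6-segment libraries and 3.37 to 4.02 CPM in the 6 D2-segment libraries. The fall was of the same size on both backgrounds (log2 -1.01 and -0.9997). The neighbouring Bhmt, betaine-homocysteine methyltransferase of the same pathway, starts within 36.5 kb of it. It fell by 1.60 on the log2 scale, though its libraries overlapped. Bhmt was chosen after its values were seen, and both genes had divided reads.

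Slc35d2 (chr13:64096308-64129368), a nucleotide sugar transporter, rose from 2.43 to 3.27 CPM with the B6 segment to 4.73 to 7.17 with the D2 segment (log2 1.04). Ninj1, a membrane protein that ruptures the plasma membrane in cell death, rose by 0.43 and Ubqln1, a ubiquitin-like shuttle protein, by 0.11. BC067074 fell by 1.16, with 32.8 to 59.3 CPM against 11.1 to 32.7 CPM. Its 2 congenic groups were nearly level, at 32.8 to 36.8 CPM in D2-13B6 and 31.3 to 32.7 in B6-13D2. Klhl3, a substrate adaptor of a ubiquitin ligase, fell by 1.87, from 1.497 to 6.86 CPM to 0.55 to 1.41 CPM. It was chosen after its values were seen.

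**Figure D3:**
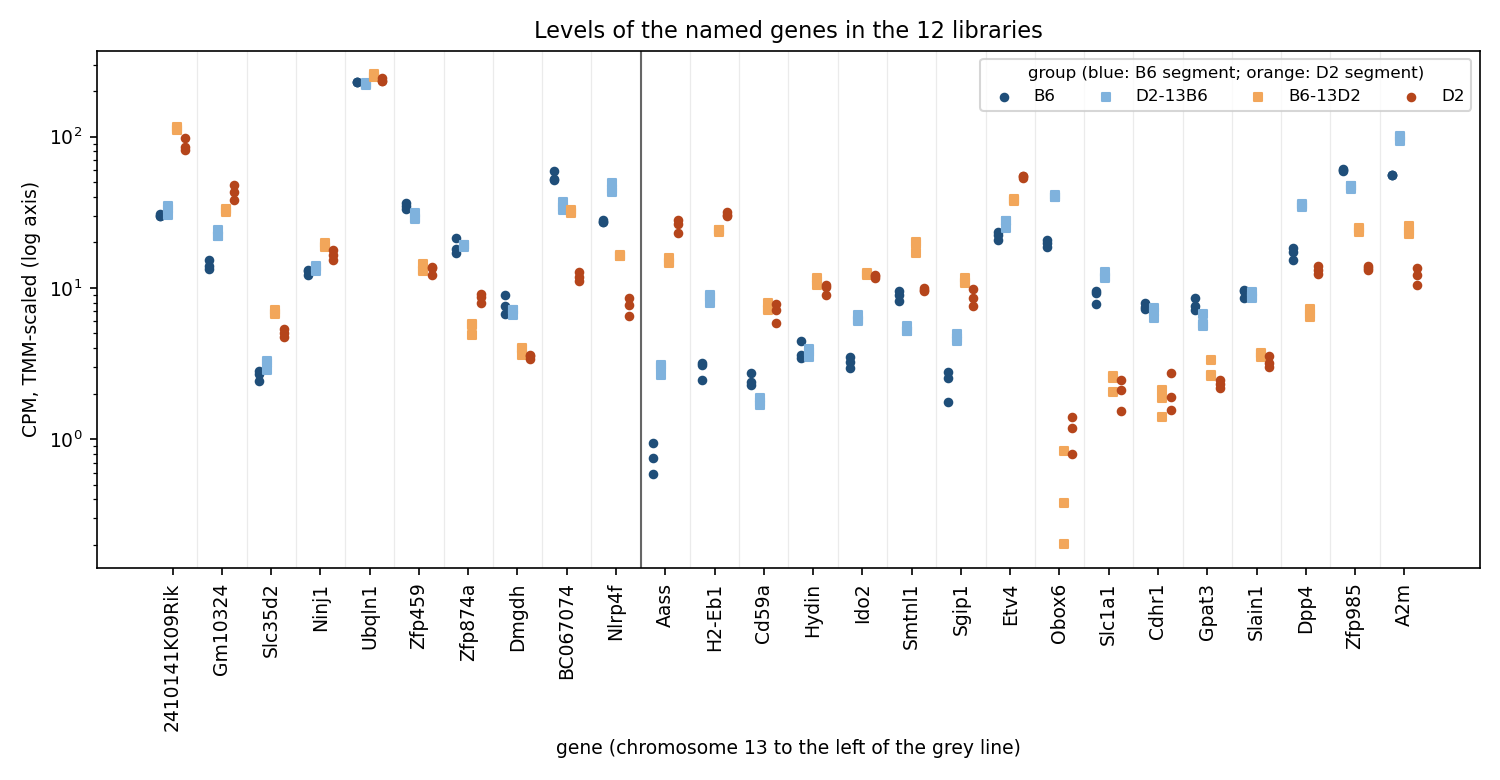
CPM (log axis) of the 26 named genes in each of the 12 libraries, 1 point per library, blue for the B6 segment and orange or red for the D2 segment. Genes left of the grey line are on chromosome 13. The naming rule kept only genes whose 6 D2-segment points lie on 1 side of the 6 B6-segment points.

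The largest effect among the genes that the naming rule gave was outside chromosome 13. Obox6 (ENSMUSG00000041583, chr7:15833241-15839678, protein coding) is an oocyte-specific homeobox gene. It stood at 18.6, 19.9 and 20.7 CPM in B6 and 40.0, 41.2 and 39.7 in D2-13B6. With the D2 segment it stood at 0.83, 0.20 and 0.38 CPM in B6-13D2 and 0.79, 1.39 and 1.18 in D2. The gene was thus well expressed with the B6 segment and close to its floor with the D2 segment on either background. The fall was 38.0-fold (log2 -5.25, SE 0.11, adjusted p = 1.01e-15), with -5.38 on B6 and -5.12 on D2. No other member of the 7 listed Obox genes passed the filter on low counts.

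Crx, a photoreceptor homeobox gene that lies 26.3 kb from Obox6, had low counts with the same split. It was at 0.81 to 1.60 CPM in the B6-segment libraries. With the D2 segment it was at 0.03 CPM in 1 B6-13D2 library, at 0.12 CPM in 1 D2 library and at 0 in the other 4. No fold is given for it, and it was chosen after its values were seen.

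Aass (ENSMUSG00000029695, chr6:23072173-23132986, protein coding) encodes the enzyme of the first steps of lysine breakdown. It was at 0.75, 0.59 and 0.94 CPM in B6 and 3.10, 2.99 and 2.65 in D2-13B6, against 14.6, 15.9 and 14.8 in B6-13D2 and 23.03, 26.56 and 28.27 in D2. All D2-segment libraries were above all B6-segment libraries, as the naming rule required. The rise was 13.2-fold (log2 3.73, SE 0.09, adjusted p = 1.39e-15). Of the 15 tested genes of lysine breakdown, 3 were called higher and 3 lower (40.0%, near the 43.9% of all tested genes). Aass was the single one called in one direction on both backgrounds, and 1 of 2 without D2 replicate 3 or at a mean of at least 1 CPM.

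H2-Eb1 (ENSMUSG00000060586, chr17:34305867-34316674, protein coding) encodes an MHC class II beta chain. It rose from 3.08, 3.19 and 2.44 CPM in B6 to 23.5, 24.0 and 24.1 in B6-13D2. On the other background it rose from 8.94, 7.89 and 8.68 in D2-13B6 to 32.0, 30.3 and 29.7 in D2. The averaged rise was 5.44-fold (log2 2.44, SE 0.05, adjusted p = 1.24e-15). Of 23 tested antigen presentation genes 7 were called higher and 7 lower (60.9%, against 43.9% of all tested genes). H2-Eb1 was the single one called in one direction on both backgrounds, and 1 of 2 without B6 replicate 2 or 3 or at a mean of at least 1 CPM. H2-Ab1, the class II beta chain of the other isotype, had libraries that did not overlap (0.42 to 1.07 CPM against 1.21 to 2.60 CPM) and passed on the B6 background alone.

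B2m and Tap1 of the same list had effects of opposite sign on the backgrounds. B2m, the light chain of MHC class I, was at 338.6 to 355.1 CPM in B6 and 113.6 to 128.1 in B6-13D2, but at 269.0 to 270.2 in D2-13B6 and 587.6 to 601.5 in D2. Its log2 effects were -1.51 on B6 and 1.14 on D2, and the small averaged value of -0.18 hides both. Tap1, a peptide transporter, had -0.83 and 0.20. This is the order of the fibroblast marker sums given above, whose part in it was not tested.

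The other named genes that rose on both backgrounds and other chromosomes had averaged log2 effects from 0.90 to 1.78. They were Cd59a, a complement inhibitor (1.78), Sgip1 of endocytosis (1.56), Hydin of motile cilia (1.46), Ido2 of tryptophan breakdown (1.43), Smtnl1 of muscle (0.99) and the ETS factor Etv4 (0.90). Cd59a stood at 1.67 to 2.72 CPM with the B6 segment and 5.83 to 7.95 with the D2 segment. Etv4 stood at 20.9 to 27.8 CPM and 37.5 to 55.2 CPM. Smtnl1 came close to overlap, with 5.18 to 9.53 CPM against 9.56 to 20.2 CPM. Its effect was 0.14 between the parental groups and 1.83 between the congenic groups.

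The other genes that fell included A2m, alpha-2-macroglobulin, a protease inhibitor (ENSMUSG00000030111, chr6:121635376-121679227). It was at 55.5 to 55.9 CPM in B6 and 93.5 to 101.2 in D2-13B6, against 22.6 to 25.6 in B6-13D2 and 10.4 to 13.6 in D2 (log2 -2.11). The B6 and D2 backgrounds gave -1.21 and -3.02. Slc1a1, a glutamate transporter, fell from 7.85 to 12.7 CPM to 1.54 to 2.62 CPM (log2 -2.22), although its exons overlap 4430402I18Rik. Cdhr1, a photoreceptor cadherin, fell by 1.90, Zfp985 by 1.54, Slain1 of microtubules by 1.41, Gpat3 of triglyceride synthesis by 1.40 and the peptidase Dpp4 by 1.38. Dpp4 differed little between parental strains (-0.38) and much between the congenic lines (-2.37). Slc1a1, Gpat3, Slain1, Dpp4, Sgip1 and Zfp985 had divided reads.

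Over the 26 named genes the effect differed between backgrounds for 15 and did not pass that test for 11 (interaction, edgeR). It is the same test as that of the congenic against the parental groups, which called 64.5% of all tested genes. Obox6, Zfp459, Dmgdh, Hydin, Cdhr1, Gpat3, Slain1, Dpp4, Cd59a, Smtnl1 and Ubqln1 were the 11. Of the 26, 24 were called between the parental strains alone and 25 between the congenic lines alone. The naming rule had already required the libraries of the segment alleles not to overlap. Both counts therefore follow largely from that rule. The congenic library names carry a prefix that the parental ones lack. Whether that prefix marks any difference in handling was not tested.

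Averages carried by 1 background were as large as some of the named effects. Zscan4b, a marker of the two-cell-like state, was at 5.97 to 8.36 CPM in B6 and 6.58 to 7.37 in B6-13D2. It was at 3.98 to 4.73 in D2-13B6 and 30.2 to 35.6 in D2. The D2 libraries stood far above the rest, and the D2-13B6 libraries lay below both groups of the B6 background. The average was 1.49, from effects of 0.00 on B6 and 2.97 on D2. Nefm, a neurofilament gene that overlaps Nefl, was low in B6 alone, at 3.11 to 5.27 CPM against 31.4 to 56.3 in the 9 other libraries. Pcdhgc4, a protocadherin with exons shared across its cluster, was high in B6-13D2 alone, at 6.11 to 18.9 CPM against 0.80 to 2.42.

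Among the falls of this kind, Gm21962 was at 163.2 to 184.4 CPM in D2-13B6 and 7.45 to 24.1 in the other groups. Smc1b, the meiotic cohesin subunit, was at 10.8 to 12.6 CPM in D2-13B6 and 1.67 to 3.82 in the others. Pramef17 was at 13.1 to 14.5 in D2-13B6, 2.92 to 3.41 in D2 and 0.20 to 0.56 on the B6 background. Of these 6 genes, in the fit without an interaction term, Nefm, Zscan4b and Smc1b were no longer called.

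The two-cell-like list showed the same pattern as a whole. This state is a rare, transient one in which stem cells express genes of the two-cell embryo. Of 17 tested genes 14 were called higher (82.4%) and 0 lower, against 16.5% and 27.3% of all tested genes. At a mean of at least 1 CPM, where 10 were tested, 9 were called higher. The median log2 effect was 1.22 against -0.04 over all tested genes. None was called in one direction on both backgrounds and none had libraries without overlap. Zscan4f stood at 85.5 to 99.8 CPM in D2 and 15.4 to 24.9 in all other libraries, and Zscan4c at 47.4 to 59.1 against 7.73 to 11.6. Summed levels were 222.3 to 270.8 CPM in D2 and 41.01 to 65.05 in the other groups. Without an interaction term 2 of the 17 were called. Tcstv1, chosen after its values were seen, is a member of this list near the far end of chromosome 13, and its effects were -0.21 on B6 and 2.82 on D2.

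Several germline genes fell on both backgrounds. Genes of this list are used in meiosis or piRNA silencing and are normally kept silent by DNA methylation outside the germline. Of 28 tested genes 13 were called lower (46.4%) and 3 higher (10.7%), against 27.3% and 16.5% of all tested genes. On both backgrounds 8 were lower and 1 was higher (32.1%, against 7.33% of all tested genes). With any 1 library left out the lower ones were 7 or 8, and 7 of the 12 such fits lost the higher one. The median effect was -0.33. Summed levels of the list were 222.0 to 225.4 CPM in B6 and 218.8 to 236.5 in B6-13D2, so the sum did not fall on the B6 background, and 336.1 to 338.3 in D2-13B6 and 171.6 to 182.5 in D2. In 5 genes (17.9%) the libraries did not overlap, all lower, against 2.79% of all tested genes (1.88% lower). Tex19.1, needed for retrotransposon control in germ cells, stood at 74.0 to 81.2 CPM in B6 and 75.7 to 77.3 in D2-13B6, against 51.4 to 60.4 in B6-13D2 and 41.6 to 46.8 in D2 (log2 -0.62, adjusted p = 1.22e-09). Brdt, a testis bromodomain protein, fell by 1.55, with -1.79 on B6 and -1.30 on D2. Dazl, an RNA-binding protein of germ cells, fell by 0.96 on average, from -0.08 on B6 and -1.85 on D2. Syce2 of the synaptonemal complex was called higher (0.34), from 1.00 and -0.32.

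Heterochromatin and DNA methylation genes moved in both directions. Of 35 tested genes 9 were called higher and 13 lower (62.9%, against 43.9% of all tested genes), with a median of -0.03. On both backgrounds 2 were higher and 6 lower (22.9%, against 7.33% of all tested genes), and 2 and 4 with RLE factors or DESeq2. Dnmt3a, a de novo DNA methyltransferase, had libraries without overlap. It was at 73.4 to 78.9 CPM in B6 and 96.2 to 98.5 in D2-13B6, against 48.8 to 54.4 in B6-13D2 and 46.9 to 48.9 in D2. The fall was 0.79 on the log2 scale (SE 0.03, adjusted p = 2.68e-12), from -0.57 on B6 and -1.02 on D2. Zfp57, a zinc finger protein that protects methylation of imprinted regions, fell from 424.7 to 510.2 CPM to 257.1 to 359.3 CPM (log2 -0.61), by much the same on both backgrounds (-0.55 and -0.67). Dnmt3b rose by 0.29 and Uhrf1, which guides maintenance methylation, by 0.25. Both averages came from the B6 background, where the effects were 0.65 and 0.68, against -0.07 and -0.17 on D2.

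Zinc finger genes on other chromosomes were called about as often as all tested genes. Of 372 tested genes 165 were called (44.4%, against 43.9% of all tested genes). There were 130 lower (34.9%) and 35 higher (9.41%), against 27.3% and 16.5% of all tested genes. On both backgrounds 27 were lower and 2 higher (7.80%, near the 7.33% of all tested genes), the 2 becoming 4 without D2 replicate 1 and 1 without D2-13B6 replicate 3. With RLE factors the counts were 105 and 51, and 16 and 6 on both, and DESeq2 gave 14 lower on both. The split was not tested against that of all genes. In 13 lower and 2 higher genes (4.03%) the libraries did not overlap, against 2.79% of all tested genes (1.88% lower and 0.916% higher). Zfp985 on chromosome 4 fell by 1.54, from 45.4 to 61.5 CPM to 13.2 to 24.9 CPM (adjusted p = 1.01e-15). Zfp57, and Zfp296 (-0.49), had the next smallest adjusted p among the lower ones. Zfp296 fell by 0.13 on B6 and by 0.86 on D2.

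Pluripotency genes were called in both directions. Of 17 tested formative and primed epiblast genes 10 were called lower and 5 higher (88.2%, against 43.9% of all tested genes). On both backgrounds 5 were lower and 1 higher (35.3%, against 7.33% of all tested genes). The 1 was lost without D2 replicate 1 or D2-13B6 replicate 1. The median was -0.26, and the median absolute effect was 0.38 against 0.16 over all tested genes. In 5 of the 17 (29.4%) the libraries did not overlap, all lower, against 2.79% of all tested genes (1.88% lower). Dnmt3a was one of them, and Nodal, a TGF-beta family ligand, was another, at 77.1 to 86.9 CPM with the B6 segment and 50.6 to 76.3 with the D2 segment (log2 -0.41). Lefty2, an inhibitor of Nodal, was called higher (0.33), but from 1.14 on B6 and -0.48 on D2.

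Of 23 naive pluripotency genes 11 were called lower and 5 higher (69.6%, against 43.9% of all tested genes), and the median was -0.09. On both backgrounds 4 were lower and 1 higher (21.7%, against 7.33% of all tested genes). The 1 was lost with DESeq2 and without D2 replicate 2 or 3 or D2-13B6 replicate 1 or 2, and without D2-13B6 replicate 3 the 5 higher became 3. Nr0b1 fell by 0.60 and Sall4 by 0.31, both on both backgrounds. Tbx3 fell by 0.29, from 312.9 to 439.5 CPM to 297.1 to 304.8 CPM, and its libraries did not overlap although the D2 background gave -0.06. Tcl1 (0.24) and Klf5 (0.13) were called higher, each from a rise on B6 and a fall on D2. Of the 8 stem cell markers 1 was called higher and 3 lower (50%, near the 43.9% of all tested genes).

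Cohesin, CTCF and lamina genes had 4 calls higher and 6 lower among 21 tested (47.6%, near the 43.9% of all tested genes). On both backgrounds 0 were higher and 2 lower (9.52%, against 7.33% of all tested genes). The 2 became 1 without B6 replicate 2, D2 replicate 2 or B6-13D2 replicate 1 or 2. With RLE factors the calls were 6 and 3, so no direction is given. Nipbl, the cohesin loader, fell by 0.25, with 99.3 to 120.0 CPM against 87.0 to 101.2 CPM. Imprinted genes had 9 calls higher and 13 lower among 42 tested (52.4%, against the same 43.9%), and 11 and 9 with RLE factors. On both backgrounds there was 1 of each (4.76%, against 7.33% of all tested genes). Without B6 replicate 1 there were 2 lower on both, and without D2 replicate 3 there were 2 of each. H19, an imprinted noncoding RNA, fell by 0.74 on average, by 0.58 on B6 and by 0.89 on D2. Its libraries overlapped, since D2 (142.0 to 152.1 CPM) exceeded B6 (88.6 to 94.0 CPM).

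Markers of other cell types were examined in the same contrast. Of 20 fibroblast and mesenchyme genes 19 were called lower (95%, against 27.3% of all tested genes), with a median of -0.33. None was called in one direction on both backgrounds, against 7.33% of all tested genes. Acta2, smooth muscle actin, was at 1074 to 1158 CPM in B6, 308.4 to 311.0 in B6-13D2, 811.4 to 818.2 in D2-13B6 and 1579 to 1738 in D2. Its effects of -1.85 on B6 and 1.04 on D2 leave an average of -0.41. Prrx1, a mesenchymal homeobox gene, gave -1.70 and 0.99. Without an interaction term 0 of these genes were called. Fewer cells of a type and less RNA per cell cannot be told apart in these cultures.

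Of 17 tested primitive endoderm genes 10 were called lower and 3 higher (76.5%, against 43.9% of all tested genes), and 5 had opposite signs on the backgrounds. Calls on both backgrounds were 2 of each direction (23.5%, against 7.33% of all tested genes). The lower ones were 0 with DESeq2 and at a mean of at least 1 CPM. They were also 0 without B6 replicate 3, D2 replicate 1, B6-13D2 replicate 3 or D2-13B6 replicate 3. The higher ones were 1 without B6 replicate 3 or B6-13D2 replicate 2. Summed levels of the list were 3475 to 3544 CPM in B6, 3962 to 4294 in D2, 2194 to 2254 in B6-13D2 and 2702 to 2744 in D2-13B6, the same order of groups as the fibroblast sums, whose part in it was not tested. Col4a1, a basement membrane collagen, had -1.54 on B6 and 0.62 on D2, while Lama1, a laminin chain, rose on both (0.61 and 0.29). Foxa2, Afp and Ttr of this list did not pass the filter on low counts. Of 12 tested trophectoderm genes 8 were called lower and 3 higher (91.7%, against 43.9% of all tested genes). On both backgrounds 4 were lower and 3 higher (58.3%, against 7.33% of all tested genes). Without D2 replicate 1 or D2-13B6 replicate 1 the 3 higher on both became 1. Krt8 and Krt18, a keratin pair, fell by 0.74 and 0.75, Hand1 by 1.70 at a level under 3 CPM, and the transcription factor Tfap2c rose by 1.052. Summed trophectoderm levels were 72.9 to 115.7 CPM, and Elf5, Tpbpa and Plac1 did not pass the filter. Neural progenitor genes had 3 calls higher and 2 lower among 12 tested (41.7%, near the 43.9% of all tested genes), and none on both backgrounds.

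**Figure D4:**
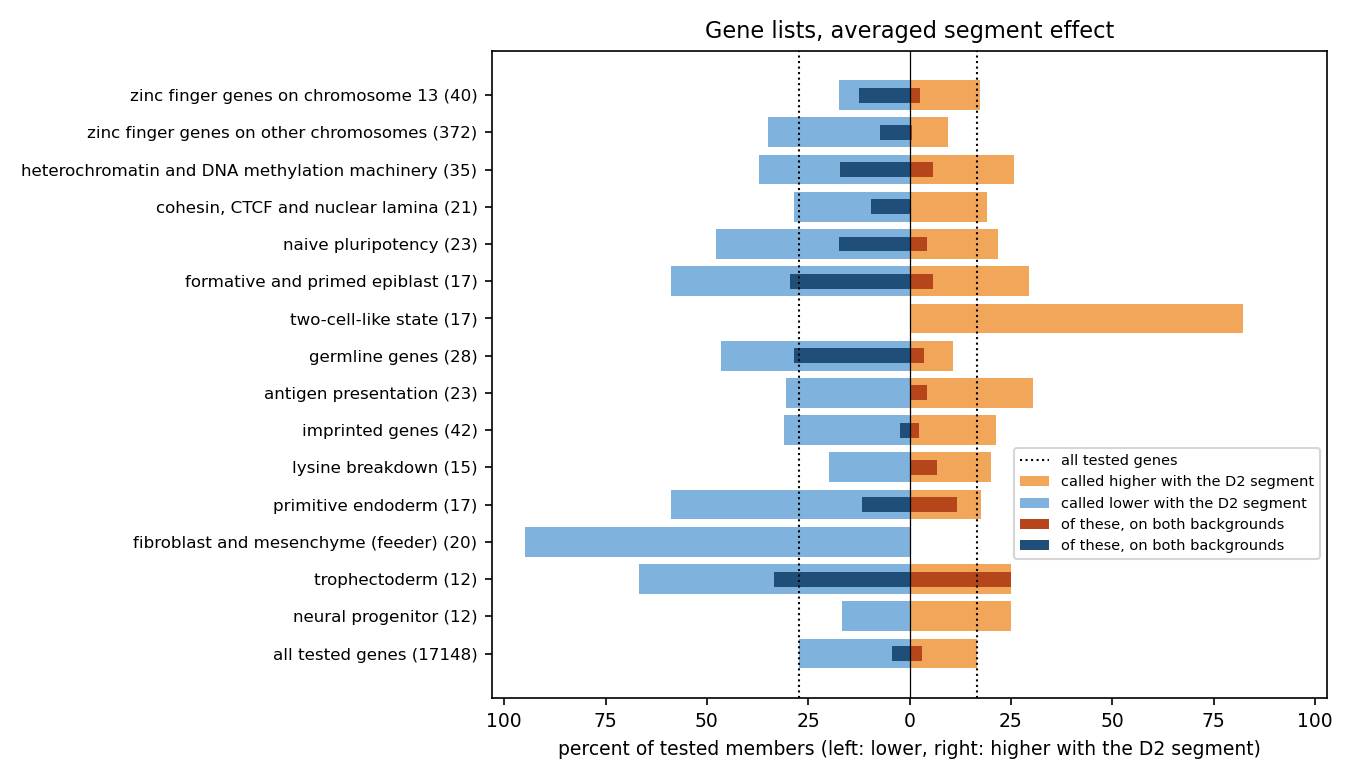
Percent of tested members of each gene list called higher (right) or lower (left) with the D2 segment, with the number tested in parentheses; dark inner bars are calls on both backgrounds in one direction and dotted lines mark all tested genes (16.5% higher, 27.3% lower). Fibroblast and two-cell-like genes have long outer bars and no inner bar, and neural progenitor genes have no inner bar either.

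The shares of calls differed between the other chromosomes. On chromosome 11, 60.1% of 1386 genes were called, against 43.9% of all tested genes. The median effect there was -0.19, from 0.00 on B6 and -0.39 on D2. In 76 of its genes (5.48%, against 2.79% of all tested genes) the libraries did not overlap, 67 lower and 9 higher. Of the 318 genes from which the named genes were drawn, 55 lay there, as did 1386 of the 17148 tested genes. With RLE factors the median was -0.16. Of the genes described above, Etv4 (0.90), Hand1 (-1.70) and Tex19.1 (-0.62) are on chromosome 11, so Etv4 went against the direction of that median and the other two went with it. The 14 Y genes had a median of -0.89 and the 624 X genes one of -0.11. Whether a difference in dosage of these chromosomes between lines plays a part was not tested.

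**Figure D5:**
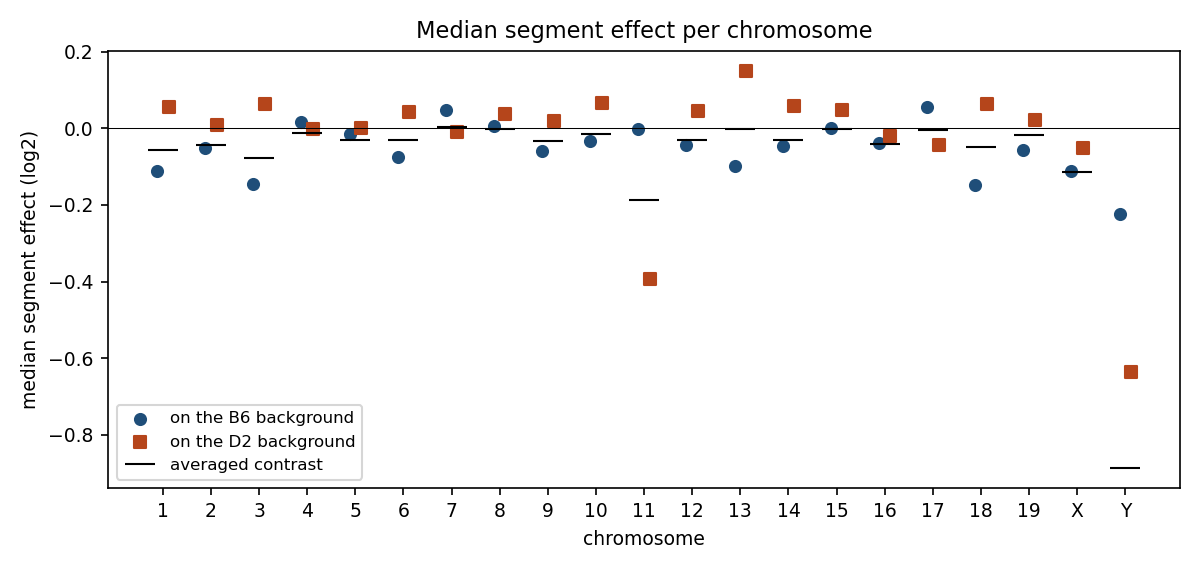
Median log2 segment effect of the tested genes of each chromosome, on the B6 background (circles), on the D2 background (squares) and in the averaged contrast (dashes). Chromosome 11 departs on the D2 background alone (-0.39 against 0.00 on B6), and chromosome Y has few genes.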

How the data were processed

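Libraries were made with an mRNA kit and sequenced from both ends, per the labels' protocols. The deposited values are expected counts of reads per gene, which the authors deposited as estimates that need not be whole. The submitters' processing notes name Bowtie 1.0.0, edgeR 3.34.1 and mm10 without a role, and the annotation, the rule for dividing shared reads and the strain sequence that reads were aligned to are not given in the sources used here. Of the tested genes 71.0% had whole counts in every library (within 1e-06), so the others hold divided reads.

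Counts were rounded to whole numbers. Of 43346 genes, 42462 were placed by their identifier in GENCODE M21 (GRCm38). The 884 without a position held 0.361% of reads. edgeR 4.0.16 in R 4.3.3 was used with its filter on low counts (minimum count 10, by group), TMM, 4 group means and the quasi-likelihood test, with Benjamini-Hochberg adjustment over 17148 genes, and was tested on simulated data. DESeq2 1.42.0 was an alternative, as were RLE factors, other filters, a replicate block, an additive model and leaving out each library. Restricting to whole counts, or dropping chromosomes 11, X and Y from the calls on both backgrounds, was chosen after seeing the data.

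Genes were named where protein coding, expressed at a mean log2 CPM of 2 or more, called in the average and in one direction on both backgrounds, and without overlap between the 6 and 6 libraries (318 genes). Ranked by the smaller within-background effect, the first 5 each way on chromosome 13 and 8 each way elsewhere were named. The 3 largest averages each way that failed on both backgrounds were added. Of gene lists, any member could be named where 12 or fewer were tested, otherwise those with the 3 smallest adjusted p each way. A gene is not reported here. The members and the lists were chosen with earlier results of these data known. No 2 libraries agreed within sampling noise (chi-square per degree of freedom 1.94 to 7.98).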

Additional observations from a re-analysis of the deposited data

Results flagged for a closer look

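The effect of the segment allele differed between the backgrounds for 53 of the 74 genes named in the report. The test was the interaction of the same edgeR fit, with Benjamini-Hochberg adjustment at 0.05. It is the same test as that of the congenic against the parental groups, which called 64.5% of all tested genes. The values below are the log2 effect on the B6 background minus that on the D2 background. Both effects of the genes described in full stand in the report. No explanation was tested for any of them.

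On chromosome 13, the difference was past the threshold for 2410141K09Rik (0.48), Gm10324 (0.29), Slc35d2 (0.68), Ninj1 (0.32), Zfp874a (-0.64), BC067074 (0.77), Nlrp4f (1.83), Klhl3 (-0.97), Gm17514 (1.76), Zfp595 (0.90), Zfp934 (1.00) and Tcstv1 (-3.02). Among the genes with one direction on both backgrounds elsewhere it was past the threshold for Aass (1.16), H2-Eb1 (1.19), Ido2 (1.01), Sgip1 (1.38), Etv4 (-0.25), Slc1a1 (0.67), Zfp985 (0.47) and A2m (1.80). 

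Among averages carried by 1 background the differences were those of Pcdhgc4 (2.87), Nefm (2.87), Zscan4b (-2.97), Gm21962 (2.89), Pramef17 (1.43), Smc1b (2.93), Zscan4c (-2.79) and Zscan4f (-2.73). Effects of opposite sign were seen in Acta2 (-2.89), Prrx1 (-2.69), Col4a1 (-2.16), B2m (-2.65) and Tap1 (-1.02). Among germline, heterochromatin and cohesin genes the differences were those of Dazl (1.76), Syce2 (1.33), Brdt (-0.49), Tex19.1 (0.30), Dnmt3a (0.45), Dnmt3b (0.72), Uhrf1 (0.84) and Nipbl (-0.18). The other genes were H19 (0.31), Klf5 (0.62), Zfp296 (0.74), Tbx3 (-0.45), Sall4 (-0.18), Tfap2c (-0.73), Lama1 (0.31), Nodal (0.52), Tcl1 (0.91), Krt8 (0.32), Lefty2 (1.62) and H2-Ab1 (1.40).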

How the results depend on the processing

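The counts of called genes stayed within 1.5 times of those reported under DESeq2 (6602 genes), RLE factors (7511), no filter on low counts (7639), a mean of at least 1 CPM (7264) and, leaving out each library in turn, between 6852 and 7652. The 2-fold count was 632 with no filter and 175 at a mean of at least 1 CPM. Without an interaction term it was 240, with 1795 genes called in all, 70 on chromosome 13, 1713 on other chromosomes and 8195 for the background effect. In that fit the variation between backgrounds is part of the residual by construction. It also ended the call of 19 named genes, Nefm, Zscan4b, Zscan4c, Zscan4f, Tcstv1, Smc1b, Uhrf1, Dnmt3b, Syce2, Klf5, Tcl1, Lefty2, Zfp595, Zfp934, Prrx1, Acta2, Col4a1, Tap1 and B2m (adjusted p from 0.08 to 0.86), while no other alternative ended the call of a named gene tested in it. At a mean of at least 1 CPM 5 named genes were not tested, Crx, Gm10772, Gm17514, Hand1 and Tcstv1. The share of called genes that were higher moved from 37.7% to 48.4% with DESeq2, and among calls on both backgrounds from 41.2% to 54.9%, 54.8% with RLE factors and 58.8% at a mean of at least 1 CPM. The median effect on chromosome 13 was 0.00, 0.03 with RLE factors and 0.04 at that mean. Leaving out 1 library gave 402 to 466 genes at 2-fold, 1078 to 1344 in one direction on both backgrounds and 522 to 618 without overlap, fewer libraries having to be separated.

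The replicate numbers did not pair the libraries. Over 18 same-numbered pairs the correlation of their deviations from the group means averaged -0.01 (-0.15 to 0.09). With the number as a replicate block 7372 genes were called, 7274 of them shared with the fit without it, and the block ended the call of no named gene. Depth limits genes under about 1 CPM, where a library holds few reads, and reads divided between similar genes limit the zinc finger and two-cell-like genes.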

Other observations

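The histone cluster region of chromosome 13 had a low share of called genes. Of 75 tested genes that start between 20 and 25 Mb, 14 were called (18.7%) against 40.8% of the chromosome, and 3 of them in one direction on both backgrounds, none of these 3 at 2-fold. This stretch was chosen after its values were seen.

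Away from chromosome 13, the 303 genes that met the naming rule lay on every other autosome and on X and Y. Of these 303, among 16351 tested genes, 206 were lower and 97 higher with the D2 segment. Chromosome 11 held 55 of them among 1386 tested genes. Chromosome 2 held 35 among 1391 tested genes, with 22 lower and 13 higher. On chromosome 15, with 623 tested genes, all 9 were higher, and on chromosome 16, with 505, all 4 were lower. No test of these counts was made.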
